A study of Arabidopsis thaliana with 8 samples.

Results

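The genes described here are AP2 (At4g36920), PI (At5g20240), SHP2 (At2g42830), SEP1 (At5g15800) and SPT (At4g36930), 5 Arabidopsis thaliana genes taken by name for their part in patterning the flower and each read by 1 probe set of the ATH1 array, out of 14070 genes with a probe set of their own. The 5 genes were chosen with earlier results of these data known. AP2, PI, SHP2 and SEP1 belong to the classes of floral organ identity genes, whereas SPT acts in carpel tissues and is not itself a member of those classes. Expression was measured in 3 kinds of dissected floral nectary from wild type Columbia-0 plants: immature lateral nectaries (ILN, 3 arrays, flower stages 11 to 12), mature lateral nectaries (MLN, 3 arrays, stages 14 to 15) and mature median nectaries (MMN, 2 arrays, stages 14 to 15). The plants, untreated and 30 to 35 days old, were kept under days of 16 h and nights of 8 h, and tissue was taken 4 to 8 h after dawn. Each array carried RNA from a pool of 250 to 300 nectaries, with 500 ng of total RNA labelled for lateral and 250 ng for median nectaries, so that position and RNA input cannot be told apart between MLN and MMN.

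In the model of floral organ identity, A, B, C and E class transcription factors combine in concentric whorls of the young flower: A with E gives sepals, A, B and E give petals, B, C and E give stamens, and C with E gives carpels. Most of these factors are MADS domain proteins that bind DNA in multimeric complexes, and AP2 is the exception, with an AP2 domain instead. Nectaries arise on the receptacle at the bases of the stamens late in flower development. They form irrespective of the organ identity of the whorl around them, but need the YABBY factor CRC, which in turn is activated by SEP, SHP and AG proteins.

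The array values were deposited on a linear scale with a median signal of 100 on every array, the lowest signals being 8.30 to 9.65 and the highest 14929 to 23364. Signals of different probe sets do not measure relative RNA abundance, so each gene is compared only with itself across nectaries. As nectary markers, CRC, the sucrose exporter SWEET9 and the cell wall invertase CWINV4 were followed, and none of the 3 was called in any comparison. CRC was at 10098 to 10705 in ILN, 8916 to 16412 in MLN and 13214 to 16636 in MMN. SWEET9 was at 10236 to 16897 in ILN, 14128 to 16748 in MLN and 12764 to 15638 in MMN. CWINV4 was at 11041 to 13661 in ILN, 11636 to 13138 in MLN and 10807 to 11856 in MMN. All 8 arrays are of nectaries, so these values cannot test the nectary label. Among markers of neighbouring tissue, 3 of 8 anther genes were followed. Their summed signal was 152 to 203 in ILN, 142 to 157 in MLN and 135 to 191 in MMN. This sum adds different probe sets and hides moves in opposite directions between MLN and ILN. EMS1 was lower on all MLN than on all ILN arrays (log2 difference -0.67), and AMS was higher (0.36). The SPL arrays overlapped (0.06). AMS was below the lower quartile of signals on every array. The anther gene A9 had a probe set of its own but was left out because its symbol did not match the gene reference. The only measured marker of 5 for carpels and ovules, INO, was at 47.7 to 94.1 in ILN, 74.5 to 108 in MLN and 57.8 to 58.3 in MMN. The only measured marker of 7 for green tissue, LHCB4.1, was at 4479 to 5167 in ILN, 4026.5 to 5467 in MLN and 3106 to 3729 in MMN. None of the markers followed was called, and their part in the results was not tested. The 3' to 5' ratio of the ubiquitin control probe sets, a sign of RNA integrity and labelling, was 2.65 to 3.60 in ILN, above its 2.08 to 2.39 in MLN and 2.21 to 2.30 in MMN, and that of the GAPDH control was 1.76 to 6.93 in ILN, 2.79 to 5.73 in MLN and 2.63 to 3.18 in MMN. Their part in the differences between ILN and mature nectaries was not tested.

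Between immature and mature lateral nectaries, AP2, SHP2 and SEP1 rose and PI and SPT did not pass the test. AP2 was 2.57-fold, SHP2 2.50-fold and SEP1 1.69-fold higher in MLN than in ILN. A gene was called at an adjusted p under 0.05 from limma, a linear model with moderated variance fitted to log2 signals of all arrays, with Benjamini-Hochberg adjustment over all 22746 probe sets. By that rule 3 of the 5 genes were called, all higher in MLN, where 23.6% of all probe sets were called and 12% were called higher. The median log2 difference was 0.76 over the 5 genes and 0.17 over all probe sets. A new quantile normalization moved the median over all probe sets from 0.17 to 0.05 for MLN against ILN and from 0.11 to 0.01 for MMN against ILN. In these dissected pools, fewer cells of a type and less RNA per cell cannot be told apart.

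**Figure D1:**
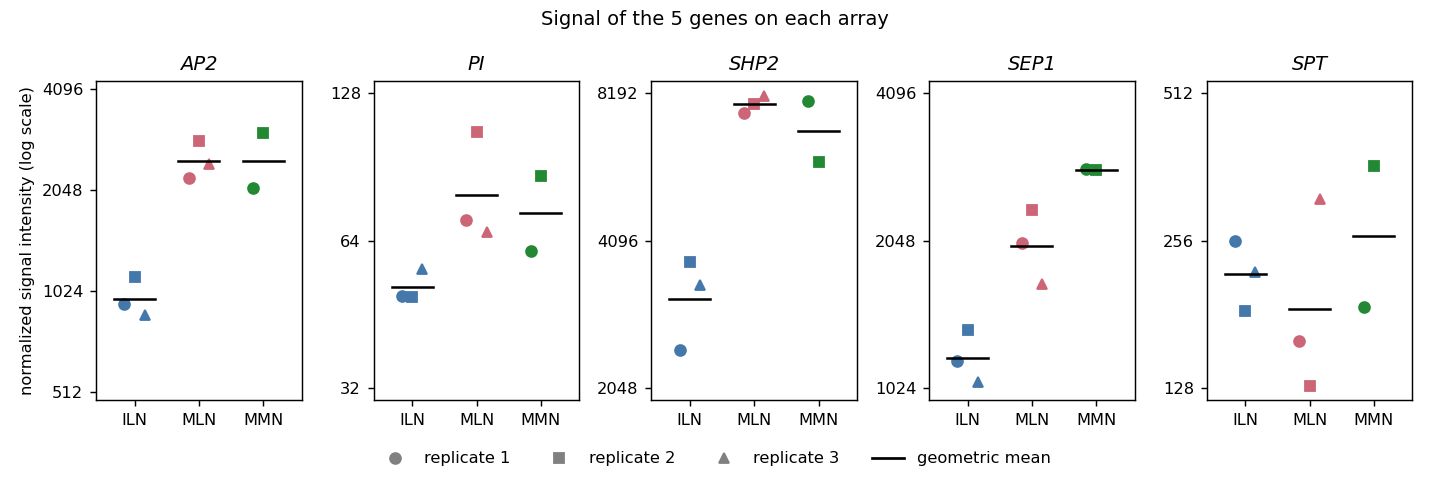
Signal of AP2, PI, SHP2, SEP1 and SPT on each of the 8 arrays (points, log axis with its own range for each gene, linear signal scaled to an array median of 100) by nectary type, with horizontal bars at the mean of the log2 values. For AP2, PI, SHP2 and SEP1 every ILN point lies below every MLN and MMN point, while the SPT points of the 3 types overlap.

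AP2, the A class gene, encodes a transcription factor required for sepal and petal identity that also restrains the C class gene AG in the outer whorls. Its signal was 940.4, 1126 and 867 on the 3 ILN arrays, 2232, 2861 and 2444 on the 3 MLN arrays, and 2080.1 and 3024 on the 2 MMN arrays. Every mature array was thus above every ILN array, with no overlap, and the MMN arrays lay on either side of all MLN arrays. The mean signal was 978 ± 134 in ILN (SD, n = 3), 2513 ± 320.2 in MLN (SD, n = 3) and 2552 ± 667 in MMN (SD, n = 2). The log2 difference was 1.36 for MLN against ILN (SE 0.20, 95% interval 0.92 to 1.80, limma adjusted p = 6.19e-04). For MMN against ILN it was 1.37 (SE 0.22, 95% interval 0.88 to 1.86, limma adjusted p = 0.00166), a call lost under the methods' t-test (Benjamini-Hochberg q = 0.145, Storey q = 0.0717). AP2 did not differ detectably between the mature types, with a log2 difference of MMN from MLN inside an interval of -0.49 to 0.50 (limma adjusted p = 0.998).

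PI, the B class gene, encodes a MADS domain protein that pairs with AP3 to specify petals and stamens. It gave signals of 49.3, 49.1 and 56.1 in ILN, 70.6, 106 and 66.5 in MLN, and 61.1 and 86.8 in MMN, below the array median of 100 on all arrays but 1. The ILN arrays were the 3 lowest, and the second MLN array stood above the others of its type. Mean signals were 51.5 ± 3.95 in ILN (SD, n = 3), 81.2 ± 21.9 in MLN (SD, n = 3) and 74.0 ± 18.2 in MMN (SD, n = 2). The log2 difference of MLN from ILN was 0.63 (SE 0.23, 95% interval 0.12 to 1.14), with an unadjusted p of 0.0205 and an adjusted p of 0.0737 from limma, and with the replicate number as a block the adjusted p was 0.0476. The difference of MMN from ILN was 0.50 (95% interval -0.07 to 1.07, limma adjusted p = 0.211), and that of MMN from MLN was -0.12 (95% interval -0.69 to 0.45, limma adjusted p = 0.968).

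SHP2 encodes a MADS domain protein of the AG clade that acts redundantly with SHP1 in the valve margins of the fruit, in ovules and in the activation of CRC. The primer pair that the study used to amplify SHP2 transcripts by RT-PCR is shown as a sequence by which these transcripts can be recognised. The capitals mark the start codon of the coding sequence, with which the forward primer begins.
SHP2 forward primer: ATGgagggtggtgcgagtaatgaa
SHP2 reverse primer: atctcgtgcttcttggatcggaca
On the array, SHP2 gave 2448, 3700.4 and 3328 in ILN, 7449, 7776 and 8088 in MLN, and 7890.5 and 5921 in MMN. No ILN array came near the lowest mature array, and the MLN arrays were close together. The mean signal was 3159 ± 643 in ILN (SD, n = 3), 7771 ± 319 in MLN (SD, n = 3) and 6906 ± 1392 in MMN (SD, n = 2).

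SHP2 was higher in MLN than in ILN by 1.32 on the log2 scale (SE 0.20, 95% interval 0.88 to 1.76, limma adjusted p = 7.58e-04). It was 2.20-fold higher in MMN than in ILN, a log2 difference of 1.14 (SE 0.22, 95% interval 0.64 to 1.63, limma adjusted p = 0.00471). The latter call was lost without the first MMN array (log2 difference 0.93, limma adjusted p = 0.0761) and under the methods' t-test (Benjamini-Hochberg q = 0.146, Storey q = 0.0724). Between MMN and MLN the log2 difference was -0.18 (95% interval -0.67 to 0.31, limma adjusted p = 0.935).

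SEP1, an E class gene, encodes a MADS domain cofactor that acts redundantly with the other SEP proteins in forming complexes with the factors of the other classes. Its signal was 1162, 1349.9 and 1055 in ILN, 2027, 2364 and 1674 in MLN, and 2864 and 2853 in MMN. The 3 types did not overlap, and stood in the order ILN, MLN, MMN. Means were 1189 ± 149 in ILN (SD, n = 3), 2021 ± 345 in MLN (SD, n = 3) and 2859 ± 8.15 in MMN (SD, n = 2).

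The step of SEP1 from ILN to MLN was 0.76 on the log2 scale (SE 0.19, 95% interval 0.35 to 1.16, limma adjusted p = 0.0123), and the call was lost under the methods' t-test with Benjamini-Hochberg adjustment (q = 0.116). SEP1 was 2.42-fold higher in MMN than in ILN (log2 difference 1.27, SE 0.21, 95% interval 0.82 to 1.73, limma adjusted p = 0.00161). The step from MLN to MMN was 1.43-fold (log2 difference 0.51, SE 0.21, 95% interval 0.06 to 0.97), with an unadjusted p of 0.0298 and a limma adjusted p of 0.555, so that it did not pass the test over all probe sets. SEP1 was the only one of the 5 genes with every MMN array above every MLN array, as in 11% of all probe sets.

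SPT encodes a basic helix-loop-helix factor required for the style, stigma and transmitting tissue of the carpel, and also acts in the germination of seeds. Its signal was 255, 184 and 221 in ILN, 159.7, 129 and 311 in MLN, and 187 and 364 in MMN. The types overlapped in every comparison, and within both mature types the arrays lay far apart. Mean signals were 220.4 ± 35.4 in ILN (SD, n = 3), 200.0 ± 97.1 in MLN (SD, n = 3) and 276 ± 125 in MMN (SD, n = 2). The log2 difference was -0.23 for MLN against ILN (95% interval -0.97 to 0.50, limma adjusted p = 0.621), 0.26 for MMN against ILN (95% interval -0.57 to 1.08, limma adjusted p = 0.688) and 0.49 for MMN against MLN (95% interval -0.33 to 1.31, limma adjusted p = 0.875). The interval for MLN against ILN leaves out a rise of the size measured for SEP1 (0.76) but holds a fall of that size.

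**Figure D2:**
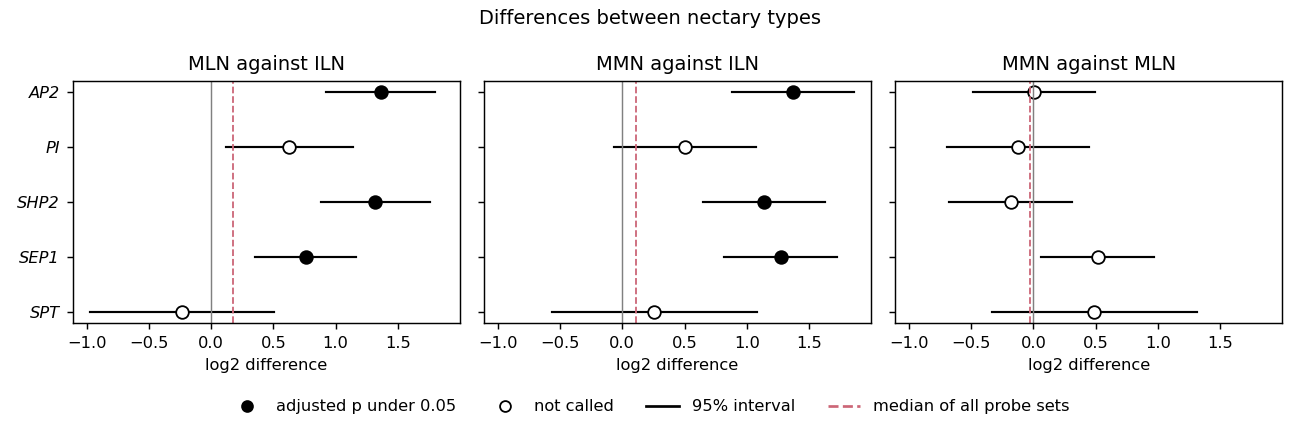
Log2 difference of signal for each of the 5 genes in the 3 comparisons of nectary types, with 95% intervals from limma as bars, filled points for called differences and a dashed line at the median of all probe sets. The intervals of AP2, SHP2 and SEP1 lie above 0 for MLN and MMN against ILN, and those of SPT include 0 throughout.

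In the comparison of mature median with immature lateral nectaries, which differ in both position and stage, AP2, SHP2 and SEP1 were again called higher, 3 of the 5 genes beside 18.8% of all probe sets called and 9.97% called higher. This comparison uses the same ILN arrays as that of MLN with ILN, so it is no second measurement of the rise. The median log2 difference was 1.14 over the 5 genes and 0.11 over all probe sets. Of the 5 genes, 4 were higher on every MMN than on every ILN array, as were 31.3% of all probe sets, and the same number were higher on every MLN than on every ILN array, as were 25.8%. For MMN against MLN, limma called 0 of the 5, with 1 at an unadjusted p under 0.05, where 0.73% of all probe sets were called and 0.572% were called higher.

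Mature nectaries of both positions were also set against ILN for each gene by an exact two-sided permutation test of 5 against 3 arrays, where 56 arrangements give a smallest possible p of 0.0179. AP2, SHP2 and SEP1 each reached that smallest exact p, with mean log2 differences of 1.36, 1.25 and 0.96 and all 5 mature arrays above the 3 ILN arrays. PI gave a difference of 0.58 (exact p = 0.0536), also with all mature arrays above ILN. This test takes no account of the replicate numbers, and it was run for the 5 genes only. Of all probe sets, 25.8% were higher on every MLN and 31.3% on every MMN than on every ILN array. Full separation from ILN was thus common, and its share for 5 against 3 arrays is not given. SPT gave -0.04 (exact p = 0.982). Comparisons of 3 against 3 or 3 against 2 arrays cannot go below an exact p of 0.1.

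The genes differed in how much replicate arrays varied. The SD of log2 signal within nectary types was 0.19 for SEP1, 0.24 for AP2 and SHP2, 0.29 for PI and 0.54 for SPT, beside a median of 0.24 over all probe sets. Only 4.84% of all probe sets varied more than SPT within types, against 67.4% that varied more than SEP1. The largest deviations of SPT from its type mean were 0.74 on the third and -0.52 on the second MLN array, and 0.48 above and below on the MMN arrays. PI deviated most on the second MLN array (0.42), and SHP2 on the first ILN array (-0.35).

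**Figure D3:**
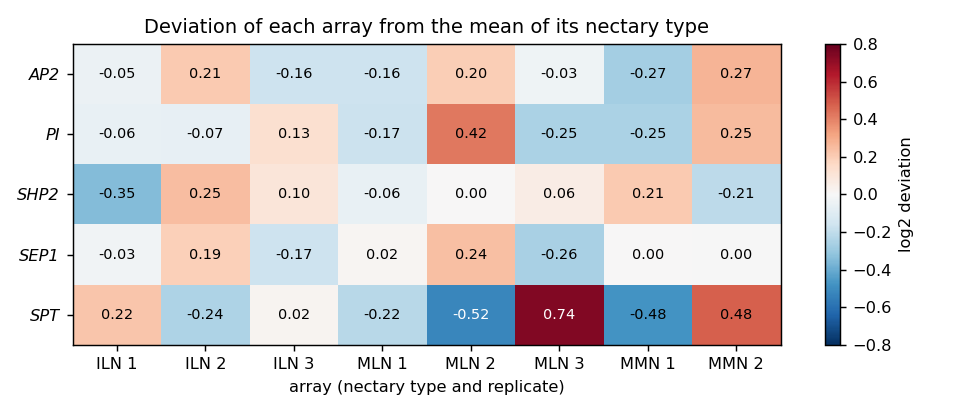
Deviation of each array's log2 signal from the mean of its nectary type (colour and printed value), for the 5 genes in rows and the 8 arrays in columns. The deviations of SPT reach 0.74 on the third MLN array, and those of SEP1, AP2 and SHP2 stay smaller.

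AP2 and SPT lie side by side on chromosome 4 with only At4g36925 between them in the TAIR10.1 gene order, PI and SEP1 are on chromosome 5 and SHP2 is on chromosome 2. Whether the neighbours share a pattern across the arrays was not tested, and SPT varied widely within types. The log2 ratio of the AP2 signal to the SPT signal was 1.88, 2.61 and 1.97 in ILN, 3.80, 4.47 and 2.98 in MLN, and 3.47 and 3.06 in MMN. As these are different probe sets only the change of the ratio can be read, and it was higher on all mature than on all ILN arrays.

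Genes with a similar profile were sought among the 6830 brighter probe sets with 1 assigned gene (6831 for PI), by Pearson's r of log2 signal across the 8 arrays. Since the arrays fall into 3 types, a high r mostly restates a shared difference between types, and it is given as a description. SHP2 had 487 genes with r over 0.9, led by At1g29700 (0.996), HCF173, a factor for translation of a photosystem II protein (0.995), and the homeobox gene HAT9 (0.994). AP2 had 455, led by At3g50350 (0.992), At1g73920 (0.991) and At3g03440 (0.989). SEP1 had 221, led by At4g32870 (0.994), At4g24380 (0.993) and the zinc finger gene ZAT6 (0.978). PI had only 10, led by At2g32415 (0.974), At1g79510 (0.934) and GAT1_2.1 (0.933), and SPT only 11, led by At3g61260 (0.963), At1g51610 (0.955) and At1g48210 (0.952).

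Relatives and partners of the 5 genes were taken from lists of known genes, of which only those with a probe set assigned to exactly 1 gene could be followed. Of 12 A, B, C and E class genes these were AP2, PI, SHP2 and SEP1 alone, and AP1, AP3, AG, SHP1, STK and the other SEP genes were not analysed here. Of 38 MADS genes of the MIKC type, to which PI, SHP2 and SEP1 belong, 16 were followed, and 4 were called higher in MLN than in ILN (median log2 difference 0.30, beside 0.17 over all probe sets) and 4 in MMN than in ILN (median 0.47, beside 0.11). Without PI, SHP2 and SEP1 there were 13, of which 2 were called higher in each of these comparisons, AGL18 and AGL44 both times, where 12% and 9.97% of all probe sets were called higher, so that this count is near the background. No MIKC gene was called lower in MLN than in ILN, where 11.5% of all probe sets were called lower. No MIKC gene was called lower in MMN than in ILN either, where 18.8% of all probe sets were called and 9.97% called higher. With only 16 genes followed, these counts of 0 do not set the family apart from the background. None was called between MMN and MLN, where 0.73% of all probe sets were called, so that this absence is near the background. AGL19, AGL21, AGL72 and AGL79 were below the lower quartile of signals on every array.

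AGL18, a repressor of flowering, gave 246, 391 and 362 in ILN, 735, 733 and 766 in MLN, and 1181 and 1526 in MMN. The types did not overlap and stood in the same order as for SEP1. AGL18 was 2.28-fold higher in MLN than in ILN (log2 difference 1.19, SE 0.21, limma adjusted p = 0.00193) and 4.11-fold higher in MMN than in ILN (2.04, SE 0.23, limma adjusted p = 1.72e-04), the latter call being lost under the methods' t-test with Benjamini-Hochberg adjustment (q = 0.0851). MMN exceeded MLN by 0.85 with an unadjusted p of 0.00374 and a limma adjusted p of 0.196.

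AGL44, also known as ANR1 and best studied in the response of roots to nitrate, gave 159.8, 237 and 120.5 in ILN, 882, 1066 and 1053 in MLN, and 720.3 and 755 in MMN. It had the largest differences from ILN among the MADS genes followed, being 6.01-fold higher in MLN than in ILN (log2 difference 2.59, SE 0.24, limma adjusted p = 3.28e-05) and 4.45-fold higher in MMN than in ILN (2.15, SE 0.27, limma adjusted p = 2.79e-04), the latter again lost under the methods' t-test with Benjamini-Hochberg adjustment (q = 0.0550). The MMN arrays were below all MLN arrays, by -0.43 on the log2 scale (limma adjusted p = 0.821).

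**Figure D4:**
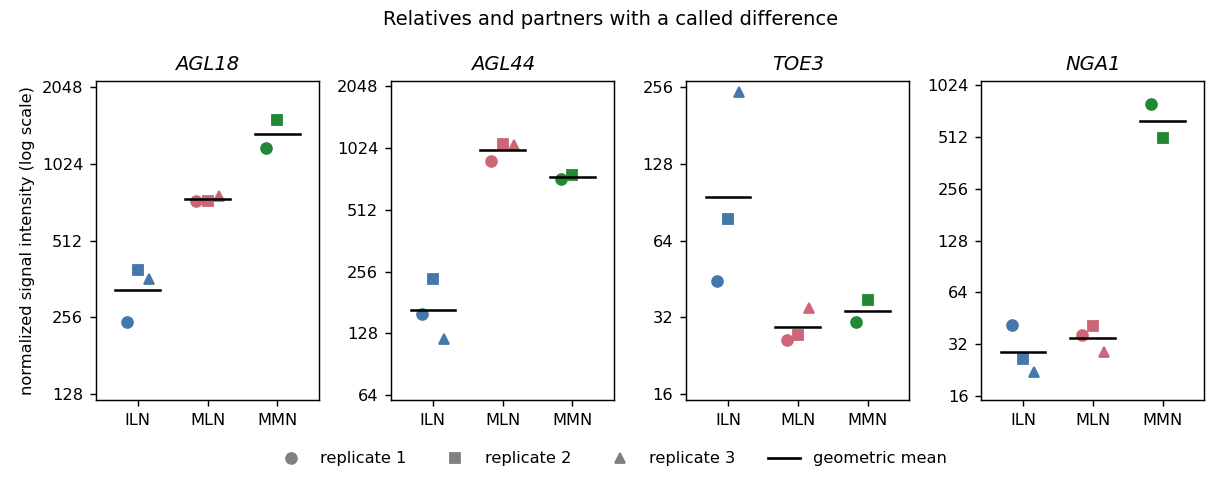
Signal of AGL18, AGL44, TOE3 and NGA1 on each of the 8 arrays (points, log axis with its own range for each gene, linear signal scaled to an array median of 100) by nectary type, with horizontal bars at the mean of the log2 values. AGL18 and AGL44 are higher on all mature than on all ILN arrays, TOE3 is highest on the third ILN array, and NGA1 is highest on the MMN arrays.

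Among the 6 genes of the AP2 group, AP2 and 3 others were followed. TOE3, which like AP2 is a target of a microRNA, was the only one of the 3 others that was called, and it was lower in MLN than in ILN, as were 11.5% of all probe sets. Its signal was 44.5, 77.6 and 245 in ILN, 26.1, 27.4 and 35.0 in MLN, and 30.7 and 37.5 in MMN, so that ILN lay above MLN on all arrays but was itself spread widely. In MLN it was below the lower quartile of signals on every array (37.9 to 41.9) and was not shown to be above background, so no fold is given. TOE3 was lower in MLN than in ILN (log2 difference of the deposited signals -1.69, SE 0.47, limma adjusted p = 0.0226, and -1.33 on the scale of log2(signal + 16)), and the call was lost without the first (adjusted p = 0.0745) or the second MLN array (adjusted p = 0.0711) and under the methods' t-test (Benjamini-Hochberg q = 0.369, Storey q = 0.129). Without the third ILN array the difference was -1.01 (limma adjusted p = 0.0201). For MMN against ILN it was -1.48 (limma adjusted p = 0.0713), and it was called without the first ILN array (-2.02, limma adjusted p = 0.00317) and with array weights (-1.71, limma adjusted p = 0.0150), whose estimation stopped before it converged.

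Of 18 genes that pattern the gynoecium or the valve margin, 8 were followed, SHP2 and SPT among them. Of the 6 others none was called between MLN and ILN, where 23.6% of all probe sets were called. Signals of NGA2 (33.0 to 45.2) and NGA3 (17.8 to 35.3) were near or below the lower quartile of the array. NGA1 alone was called higher in MMN than in MLN and in MMN than in ILN, 1 of 6 beside 0.572% and 9.97% of all probe sets called higher. NGA1, a B3 domain factor that promotes style and stigma development, gave 41.4, 26.4 and 22.2 in ILN, 36.3, 41.1 and 28.7 in MLN, and 792 and 503 in MMN. In ILN and MLN these signals were near or below the lower quartile of the array (31.6 to 41.9) and were not shown to be above background, so no fold is given. NGA1 was higher in MMN than in MLN (log2 difference of the deposited signals 4.17, SE 0.31, limma adjusted p = 7.96e-05) and higher than in ILN (4.45, SE 0.31, limma adjusted p = 5.85e-06). On the scale of log2(signal + 16) these differences were 3.66 and 3.84. Both calls were lost under the methods' t-test (Benjamini-Hochberg q = 0.550 and 0.107, Storey q = 0.471 and 0.0530). The paper itself lists NGA1 as higher in MMN than in MLN at a q under 0.05. The methods' test as rerun here did not reproduce that listing, so the lost call is not the paper's result. CRC, the nectary regulator in this list, had mean signals of 10456 in ILN, 11746.5 in MLN and 14925 in MMN and was not called.

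Of the 10 helix-loop-helix relatives of SPT only SPT and ALC were followed, and neither was called. The ALC signal ran from 637 to 2295 on the ILN arrays. For MLN against ILN its log2 difference was 0.06 (SE 0.39), inside a limma interval of -0.80 to 0.92. The lack of a call thus does not show that ALC stayed unchanged. With so few genes followed, it does not set these relatives apart from the background either. Of 23 genes that regulate the identity genes, 7 were followed: UFO, SEU, RBE, PTL, CAL, AGL24 and HEN4. None of the 7 was called by limma in any comparison, where 23.6% of all probe sets were called for MLN against ILN, 18.8% for MMN against ILN and 0.73% for MMN against MLN. The 7 had log2 differences of 0.04 to 0.48 for MLN against ILN, -0.05 to 0.61 for MMN against ILN and -0.41 to 0.15 for MMN against MLN, although 2, 1 and 1 of them respectively had an unadjusted p under 0.05. Signals of RBE (24.2 to 36.3) and PTL (26.2 to 40.7) were near or below the lower quartile of the array (31.6 to 41.9) and were not shown to be above background. Only SEU and HEN4 were above the array median of 100 on every array, so the lack of a call does not show that the dim genes stayed unchanged.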

How the data were processed

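RNA of 8 pooled nectary samples was hybridised to Affymetrix ATH1 arrays. Per the methods, the authors applied quantile normalization and RMA together with reference arrays and scaled each array to a median of 100, and the deposited values are linear signal intensities of 22810 probe sets. RMA is also named in the submitters' processing notes, with no version. The replicates were pools from separate plants. The 64 control probe sets were left out, and log2 intensities of 22746 were fitted with limma 3.58.1 in R 4.3.3 (1 mean for each nectary type, eBayes with trend, two-sided, Benjamini-Hochberg over all). The number of arrays limits the precision. Code was tested on simulated data.

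The platform annotation and probe set names in the study's supplementary tables gave 14217 probe sets exactly 1 gene, 559 several, 7896 none, and 74 a gene that the RefSeq table of TAIR10.1 did not hold. SPT (246212_at) was named by both sources, and AP2 (246217_at), PI (246072_at), SHP2 (263988_at) and SEP1 (246531_at) by the supplementary tables alone. Where a gene had several probe sets the brightest was used.

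The 5 genes are described in full. From each list up to 4 further called genes with the smallest adjusted p were named, and for each of the 5 the 3 genes of the most similar profile. The genes and lists were chosen with earlier results of these data known. MLN and ILN arrays of the same replicate number deviated from their type means together (correlations 0.338, 0.241 and 0.211 over probe sets), whereas MMN correlated with MLN at 0.07 and -0.02 and with ILN at -0.03 and -0.07. The labels do not say that these arrays are paired, and arrays of different numbers were not compared. From replicate 1 to 3 the GAPDH 3' to 5' ratio fell in ILN (6.93, 4.16 and 1.76) and in MLN (5.73, 4.86 and 2.79), and the ubiquitin ratio only in ILN. Their part in these correlations was not tested. In all, 18 alternatives were run, covering normalization, centring, dim probe sets, variance trend, array weights, arrays fitted, the replicate block, a pseudocount of 16, the methods' t-test (equal variance, linear signals), and each array left out.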

Additional observations from a re-analysis of the deposited data

Results flagged for a closer look

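NGA1 stood out because its difference from ILN was not the same in MMN as in MLN. It was 4.45 higher on the log2 scale in MMN than in ILN and 0.27 higher in MLN than in ILN, and the test of the difference between these, MMN against MLN, gave 4.17 (limma adjusted p = 7.96e-05), with both MMN arrays above all 6 lateral arrays. The MMN samples also had the lower RNA input, so position and RNA input cannot be told apart in this difference.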

How the results depend on the processing

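Under the 18 alternatives, AP2, SHP2 and SEP1 stayed higher in MLN and MMN than in ILN. Under the methods' t-test with Benjamini-Hochberg q, the log2 differences of SEP1 in MLN against ILN (0.77, q = 0.116), AP2 (1.38, q = 0.145) and SHP2 (1.13, q = 0.146) in MMN against ILN did not pass, nor did AP2 and SHP2 with Storey q (0.0717 and 0.0724). That test pools no variance across probe sets. The replicate block brought PI in MLN against ILN past the threshold (0.63, adjusted p = 0.0476) and changed no other call of the 5 genes. Leaving out single arrays moved SHP2 in MMN against ILN between 0.93 and 1.34, with the call lost without the first MMN array. Differences that were not called changed sign: AP2 in MMN against MLN was -0.034 with a new quantile normalization, -0.044 with the replicate block and -0.26 to 0.27 with arrays left out. With arrays left out PI in MMN against MLN gave -0.38 to 0.13, SHP2 in MMN against MLN -0.39 to 0.023, SPT in MLN against ILN -0.60 to 0.028, and SPT in MMN against ILN -0.22 to 0.74.

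Among gynoecium and valve margin genes, the number called in MMN against MLN fell from 1 to 0 under the methods' t-test with either q, and was 0 with brighter probe sets only, a fit that left out NGA1. In MMN against ILN it was 1 in that fit and fell from 2 to 0 under the t-test with either q, and was 1 to 3 with arrays left out (1 without the first MMN array). In MLN against ILN it rose from 1 to 2 without the variance trend or with the replicate block and to 3 with Storey q, and was 1 to 3 with arrays left out (3 without the first ILN array). MIKC genes called in MMN against MLN rose from 0 to 1 with array weights (an estimate that stopped before convergence). In MMN against ILN the number of MIKC genes called fell from 4 to 1 under the t-test with Benjamini-Hochberg q. SHP2 (q = 0.146), AGL18 (q = 0.0851) and AGL44 (q = 0.0550) were the genes lost. That number was 5 with brighter probe sets or the replicate block and 6 with array weights. With ILN or MLN arrays left out it was 4 to 6 (6 without the first ILN or the second MLN array). Regulators called rose from 0 to 1 in MMN against ILN with array weights and in MMN and MLN against ILN with Storey q, and were 0 to 1 with arrays left out (1 without the first ILN array). Other causes were not tested. PI, NGA1 and TOE3 were too dim for the fit of brighter probe sets.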
